A study of Mus musculus with 6 samples.

Results

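Splicing factors of 3 kinds were followed in DN3 thymocytes, the double-negative stage of the mouse thymus at which the T-cell receptor beta gene is rearranged. All protein-coding genes of the deposited table whose symbol begins with Snrp, Sf3, Lsm, Srsf or Hnrnp and goes on with a letter or digit were taken, which gave 66 genes among the 21135 listed. They comprised 35 genes grouped here by symbol as core small nuclear ribonucleoproteins, or snRNPs (12 Snrp, 9 Sf3 and 14 Lsm). A further 11 encode SR proteins (Srsf) and 20 encode hnRNPs (Hnrnp). The core group includes 6 tested Lsm genes outside the ring of Lsm2 to Lsm8, described below. Lsmem1 was taken by its letters alone, since it encodes a membrane protein and not an Sm-like protein.

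RNA was sequenced from 3 libraries of GATA-site mutant DN3 thymocytes, in which both copies of NMe carry mutations in GATA sites 1 and 2, and from 3 libraries of DN3 thymocytes with wild-type NMe. All were of the C57BL/6 strain. NMe is a distal Myc enhancer that binds Notch. Libraries carry the numbers 1 to 3 within a genotype, and no animal, age or batch is named in the labels. A p-value here therefore reflects variation from library to library, which may be technical. Levels are read counts divided by 1 size factor per library, called normalised reads here. They are relative to the rest of each library, and in bulk RNA fewer cells with a transcript and less of it per cell cannot be told apart.

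Pre-mRNA splicing is carried out by the spliceosome, which is built from small nuclear RNAs and their proteins. A ring of Sm proteins is loaded onto the U1, U2, U4 and U5 RNAs by the SMN complex after arginine methylation by PRMT5, and a ring of Lsm proteins binds the end of U6 RNA. The SF3A and SF3B proteins anchor the U2 particle at the branch point. SR proteins bind exons and mostly favour the use of nearby splice sites, while hnRNPs coat nascent RNA and often act as repressors.

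The libraries held 38.6 to 51.3 M recovered reads. Myc had 5562, 4612 and 6165 normalised reads in the mutant libraries, against 18041, 19223 and 20196 in the wild-type libraries (log2 change -1.82 ± 0.12, SE). The DN3 marker Il2ra averaged 106147 in the mutant and 58950 in the wild type. Cd4, a marker of the later double-positive stage, averaged 33.7 and 65.56. Several marker sums differed between the genotypes. The 5 listed B-cell markers summed to 13183 to 15393 in the mutant and 18114 to 20803 in the wild type, most of it from Ighm. The 7 double-positive markers summed to 46817 to 55597 in the mutant and 34937 to 40653 in the wild type, most of it from Arpp21. All 11 handling-response genes had positive changes (median log2 change 0.65, lowest 0.40), of which Egr1 (1.44 ± 0.43) and Ier2 (0.80 ± 0.24) rose, and their sums overlapped, at 440874 to 808746 in the mutant and 294768 to 610788 in the wild type. The 5 erythroid markers summed to 34.2 to 56.14 in the mutant libraries, and to 8177 in wild type replicate 2 against 61.5 and 16.01 in the other wild-type libraries. The part of these differences in the results on splicing genes was not tested.

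Of 64 members with a mean of at least 10 normalised reads, 22 fell in the mutant and 0 rose at an adjusted p of 0.05 or less (limma on log2(value + 1), Benjamini-Hochberg over 17815 genes). Across all tested genes 10.9% were called lower and 7.94% higher. The changes were modest in size, with a median log2 change of -0.24 over the 64 members, beside 0.03 over all tested genes. No member fell 2-fold or more, where 2.5% of all tested genes did. At 1.5-fold or more, 4 of the 64 members were called lower, where 6.8% of all tested genes were. The members' median level was 7712 normalised reads in the mutant and 9434 in the wild type, while genes down to a mean of 10 were tested. The part of expression level in the counts called was not tested. At an unadjusted p under 0.05, 32 members were lower in the mutant and 1, Hnrnph3, was higher, and edgeR, voom and DESeq2 called 0, 0 and 1 higher. The share of all tested genes at that unadjusted threshold is not given. Unadjusted counts here and in the lists below therefore have no background beside them. The libraries of the genotypes did not overlap for 34 members lower and 2 higher in the mutant, where 20.3% and 18.0% of all tested genes were so. Without wild type replicate 2 the members that fell numbered 10, and all genes called lower numbered 1086 in place of 1938. The members' median log2 change lay between -0.28 and -0.22 whichever library was left out, and members lost without wild type replicate 2 kept changes such as -0.43 for Sf3a1 and -0.55 for Hnrnpu. By family the median ran from -0.55 to -0.41 for Snrp, -0.41 to -0.22 for Sf3 and -0.2 to -0.04 for Lsm. For Srsf it ran from -0.24 to -0.15 and for Hnrnp from -0.24 to -0.1. The Lsm, Srsf and Hnrnp medians were smallest in size without wild type replicate 3.

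**Figure D1:**
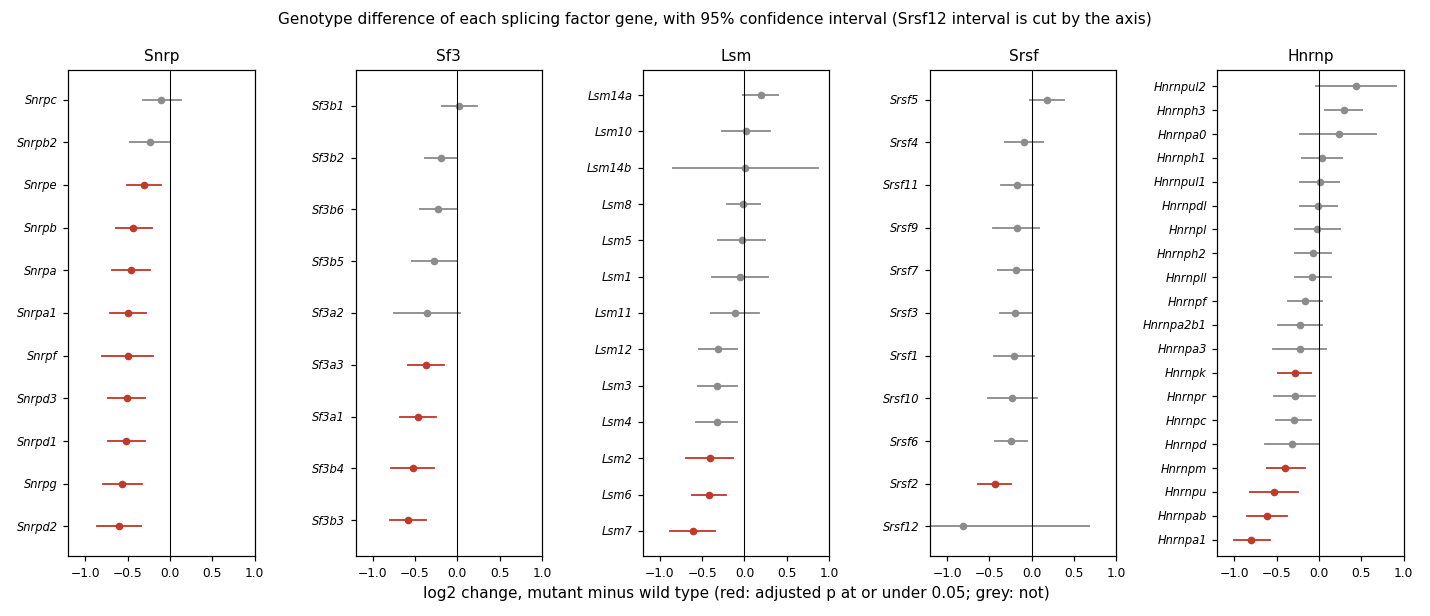
Log2 change (mutant minus wild type, x axis, log2(value + 1) scale) of the 64 tested genes in 5 panels by family, with 95% confidence intervals as bars. Red points passed the test. They make up 9 of 11 Snrp genes, 4 of 9 Sf3 genes, 3 of 13 Lsm genes, 1 of 11 Srsf genes and 5 of 20 Hnrnp genes, all lower in the mutant.

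All 66 genes together took 1.90%, 1.97% and 2.01% of the normalised reads of the mutant libraries, against 2.16%, 2.20% and 2.40% of those of the wild-type libraries. Snrp genes took 0.181%, 0.163% and 0.170% in the mutant, against 0.212%, 0.228% and 0.229% in the wild type. Hnrnp genes took 0.916%, 1.00% and 1.02% in the mutant, against 1.08%, 1.10% and 1.25% in the wild type. The genotypes did not overlap in these 3 sums. Per kilobase of exon the highest level among the members was that of Hnrnpa2b1, at 13112 normalised reads in the mutant and 15382 in the wild type, and the lowest among tested members was that of Srsf12, at 3.50 and 7.62.

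Among the Snrp genes, which encode the Sm ring and the proteins particular to U1 and U2, 9 of 11 tested members fell and 0 rose, with a median log2 change of -0.49. All 7 genes of the Sm ring fell. Snrpd2 (chromosome 7, SmD2) had 5593, 4375 and 4636 normalised reads in the mutant libraries, against 6694, 7792 and 7579 in the wild-type libraries. It was 33.8% lower in the mutant (log2 change -0.60 ± 0.12, adjusted p = 0.00671 by limma). Snrpg (chromosome 6, SmG) had 8033, 6474 and 6833 in the mutant and 10201, 11005 and 10172 in the wild type (-0.56 ± 0.10, adjusted p = 0.00541 by limma). Every wild-type library lay above every mutant library in both genes. Snrpd1 (chromosome 18, SmD1) had 8248, 7545 and 7448 in the mutant and 10319, 11136 and 11778 in the wild type (-0.52 ± 0.09, adjusted p = 0.005 by limma). Snrpd3 (chromosome 10, SmD3) had 7698, 8516 and 7608 in the mutant and 10335, 11421 and 12233 in the wild type (-0.51 ± 0.10, adjusted p = 0.00654 by limma). The genotypes were again separate in both. The Snrp genes that fell numbered 5 when mutant replicate 2 was left out and also 5 when wild type replicate 2 was.

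The other 3 ring members also fell. Snrpf (SmF) averaged 1300 ± 191.2 in the mutant and 1831 ± 130.2 in the wild type (SD, n = 3 each), a log2 change of -0.50 ± 0.14. Snrpb (SmB), which had the highest level of the Snrp genes per kilobase of exon, averaged 19573 ± 1470 in the mutant and 26290 ± 1997 in the wild type (-0.43 ± 0.10). Snrpe (SmE) averaged 10935 ± 929.7 in the mutant and 13504 ± 93.24 in the wild type (-0.31 ± 0.09), the smallest change of the 7. None of these 3 calls held in every fit that leaves out a library. Snrpe, with an adjusted p of 0.0436 by limma, missed the threshold with edgeR (0.0559), with equal library totals (0.0725) and in 5 of the 6 fits that leave out a library (0.0879 to 0.148). Snrpf was lost without mutant replicate 2 (0.0996) or 3 (0.0676) or without wild type replicate 1, 2 or 3 (0.0504, 0.111 and 0.0652), and Snrpb without mutant replicate 2 (0.0515) or wild type replicate 2 (0.0714). Snrpf shares 65.9% of its exon length with Ccdc38, which averaged 46.01 normalised reads, and the kit does not mark strand.

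**Figure D2:**
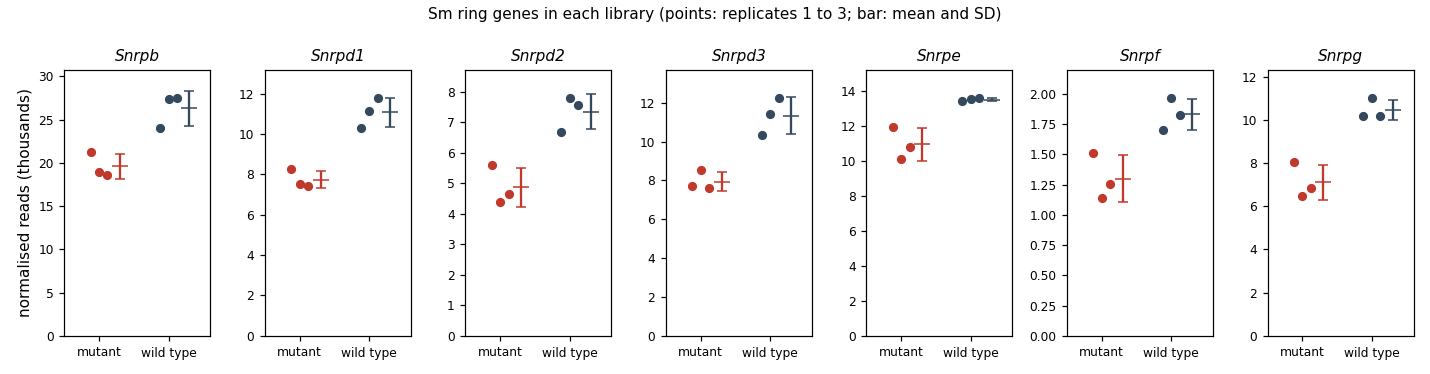
Normalised reads (y axis, in kilo-reads, from 0) of the 7 Sm ring genes in the 3 mutant and the 3 wild-type libraries. Points are replicates 1 to 3 from left to right and bars give the mean and SD. In each gene all mutant points lie below all wild-type points.

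Of the proteins particular to U1 and U2, 1 of 2 fell in each. Snrpa1 (chromosome 7, the A' protein of U2) had 4485, 4267 and 4502 normalised reads in the mutant libraries, against 5735, 6322 and 6627 in the wild-type libraries (-0.49 ± 0.10, adjusted p = 0.00685 by limma). Snrpa (chromosome 7, the A protein of U1), which binds a stem-loop of U1 RNA, had 5134, 4411 and 4566 in the mutant and 6075, 6872 and 6412 in the wild type (-0.46 ± 0.10, adjusted p = 0.0124 by limma). Its call was lost without mutant replicate 2 (0.0513) or wild type replicate 2 (0.0666). The other two were not called. Snrpb2 (the B'' protein of U2) had 3289, 2913 and 2934 in the mutant and 3647, 3423 and 3715 in the wild type, with a 95% interval of the log2 change of -0.47 to -0.01. Snrpc (the C protein of U1) had 3211, 2758 and 3054 in the mutant and 3153, 3301 and 3167 in the wild type, with an interval of -0.32 to 0.13. Snrpn, a tissue-restricted relative of Snrpb whose reads may be shared with it, was below the filter, with 6, 13 and 0 reads in the mutant libraries and 3, 1 and 1 in the wild-type libraries. The genotypes overlapped, and mutant replicate 2 held 13 of the 19 mutant reads.

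Promoter windows of 250 bases before to 50 after a RefSeq start site (GRCm38.p6) matched 57 of the 66 members by symbol. The E-box CACGTG, which reads the same on both strands and which MYC with MAX is known to bind, was found in 6 of these 57 genes (9.21% of their windows), in 7.15% of all windows and in 9.71% of those of tested genes. It was in 2 of the 19 matched members that fell and in 4 of the 36 that were not called. Of the matched Snrp genes Snrpa alone holds it. CCGGAAG on either strand, the core that ETS-family factors are known to bind, was found in 17 of the 57 genes (28.95% of their windows), in 8.86% of all windows and in 16.97% of those of tested genes. These matches are a description of letters and not of binding. The 250 bases before the start are shown for Snrpa (chr7:27196272-27196521, minus strand), with CACGTG in capitals, and for Snrpg (chr6:86371290-86371539, plus strand), with CCGGAAG in capitals, as a U1 gene and a ring gene that fell.
Snrpa: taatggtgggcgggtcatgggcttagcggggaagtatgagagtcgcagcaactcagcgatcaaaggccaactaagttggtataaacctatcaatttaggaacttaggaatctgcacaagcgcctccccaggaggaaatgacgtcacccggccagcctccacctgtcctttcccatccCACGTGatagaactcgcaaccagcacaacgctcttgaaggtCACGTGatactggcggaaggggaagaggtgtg
Snrpg: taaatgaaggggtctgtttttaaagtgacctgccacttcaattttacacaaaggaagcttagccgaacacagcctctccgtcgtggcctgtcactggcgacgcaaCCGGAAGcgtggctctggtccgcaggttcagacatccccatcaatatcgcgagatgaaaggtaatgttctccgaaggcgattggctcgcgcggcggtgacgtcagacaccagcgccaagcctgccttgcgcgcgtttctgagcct

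Of the Sf3 genes 4 of 9 fell and 0 rose, with a median log2 change of -0.36. Sf3b3 (chromosome 8), a scaffold subunit of SF3B, had 17875, 20685 and 20095 normalised reads in the mutant libraries, against 27838, 28634 and 31415 in the wild-type libraries. It was 33.3% lower in the mutant (-0.58 ± 0.09, adjusted p = 0.00257 by limma). Sf3b4 (chromosome 3), an RNA-binding subunit of SF3B, had 5608, 4446 and 4997 in the mutant and 6581, 7685 and 7321 in the wild type (-0.52 ± 0.11, adjusted p = 0.0109 by limma). Both were separate between the genotypes. Sf3a1 (chromosome 11) had 6978, 7745 and 6884 in the mutant and 9301, 10350 and 10065 in the wild type (-0.46 ± 0.09, adjusted p = 0.00855 by limma). Sf3a3 (chromosome 4) had 8523, 8142 and 7772 in the mutant and 9691, 10975 and 11007 in the wild type (-0.37 ± 0.09, adjusted p = 0.0219 by limma). Sf3a1 and Sf3a3 encode subunits of SF3A, and neither overlapped between the genotypes. Sf3b1, which encodes the subunit that clamps the branch site, stood apart from these, with 41111, 46537 and 39536 in the mutant and 41016, 40157 and 43811 in the wild type. Its interval was -0.18 to 0.23. Sf3b2 (-0.19 ± 0.08), Sf3b6 (-0.23 ± 0.10), Sf3b5 (-0.27 ± 0.12) and Sf3a2 (-0.36 ± 0.18) were not called. Without wild type replicate 2 only Sf3b3 of the 9 was called, and adjusted p was then 0.0509 for Sf3a1, 0.0568 for Sf3b4 and 0.0996 for Sf3a3. Sf3a3 was also lost without mutant replicate 2 (0.0633), mutant replicate 3 (0.0579) or wild type replicate 3 (0.0697).

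CCGGAAG was in the windows of 6 of the 7 matched Sf3 genes, whether called (Sf3a1, Sf3a3, Sf3b3) or not (Sf3a2, Sf3b2, Sf3b6), and CACGTG was in none of the 7. The 250 bases before the start are shown for Sf3a3 (chr4:124714611-124714860, plus strand) and Sf3b3 (chr8:110846804-110847053, minus strand), with CCGGAAG or its reverse complement in capitals.
Sf3a3: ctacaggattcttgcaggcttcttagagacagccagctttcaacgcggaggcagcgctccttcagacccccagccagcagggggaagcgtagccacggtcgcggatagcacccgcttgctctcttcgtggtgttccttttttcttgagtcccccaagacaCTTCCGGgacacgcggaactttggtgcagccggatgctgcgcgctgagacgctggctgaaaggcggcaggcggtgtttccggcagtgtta
Sf3b3: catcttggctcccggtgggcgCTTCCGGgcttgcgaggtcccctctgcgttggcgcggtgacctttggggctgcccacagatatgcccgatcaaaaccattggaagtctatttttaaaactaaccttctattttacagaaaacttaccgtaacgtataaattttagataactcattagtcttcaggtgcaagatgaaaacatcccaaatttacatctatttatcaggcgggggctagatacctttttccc

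Of 13 tested Lsm genes 3 fell and 0 rose, with a median log2 change of -0.11. All 3 belong to the ring of Lsm2 to Lsm8 on U6 RNA. Lsm7 (chromosome 10) had 4089, 3369 and 3232 normalised reads in the mutant libraries, against 4950, 5789 and 5575 in the wild-type libraries (-0.61 ± 0.12, adjusted p = 0.00642 by limma). Lsm6 (chromosome 8) had 6304, 6023 and 5747 in the mutant and 7711, 8243 and 8196 in the wild type (-0.42 ± 0.09, adjusted p = 0.0108 by limma). Lsm2 had 3962, 2982 and 3723 in the mutant and 4375, 4793 and 4969 in the wild type (-0.41 ± 0.12, adjusted p = 0.043 by limma). No mutant library reached a wild-type library in these 3 genes. Lsm3 (-0.32 ± 0.10, adjusted p = 0.0554 by limma) and Lsm4 (-0.33 ± 0.11, adjusted p = 0.0571 by limma) did not overlap between the genotypes either and lay just past the threshold. Lsm8, the subunit that keeps the ring nuclear, had 6705, 6310 and 6650 in the mutant and 6497, 6483 and 6894 in the wild type, with an interval of -0.21 to 0.18. Lsm5 changed by -0.03 ± 0.12. Without wild type replicate 2 the Lsm genes that fell numbered 1, since Lsm6 (0.058) and Lsm2 (0.127) were lost, and without mutant replicate 1 they numbered 5. Lsm2 was also lost with equal library totals (0.0693) and without mutant replicate 2 (0.139), mutant replicate 3 (0.0605), wild type replicate 1 (0.0636) or wild type replicate 3 (0.116).

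None of the 6 tested Lsm genes outside that ring was called by limma, at an unadjusted p under 0.05 there was 1, Lsm12 (-0.31 ± 0.10), and edgeR, voom and DESeq2 called 0, 0 and 1. Lsm1, which takes the place of Lsm8 in the cytoplasmic ring that acts in mRNA decay, averaged 2953 ± 614 in the mutant and 3016 ± 208.7 in the wild type. Lsm10 and Lsm11, which belong to the U7 particle of histone mRNA processing, changed by 0.02 ± 0.13 and -0.11 ± 0.13. Lsm14a, a protein of processing bodies, had 9315, 7949 and 8437 in the mutant and 7461, 7456 and 7548 in the wild type (0.19 ± 0.09, adjusted p = 0.184 by limma). Its libraries did not overlap, though the difference missed the threshold. Lsm14b varied more within each genotype than between them, at 173.1 to 408.3 in the mutant and 223.7 to 515.1 in the wild type. Lsmem1 had 36 reads in all in the mutant libraries and 8 in the wild-type libraries (ratio 4.74, exact Clopper-Pearson 95% interval 2.17 to 11.80, counting error only) and was not tested. It shares 12.5% of its exon length with Gm17056, which averaged 74.26 normalised reads, and the kit does not mark strand.

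**Figure D3:**
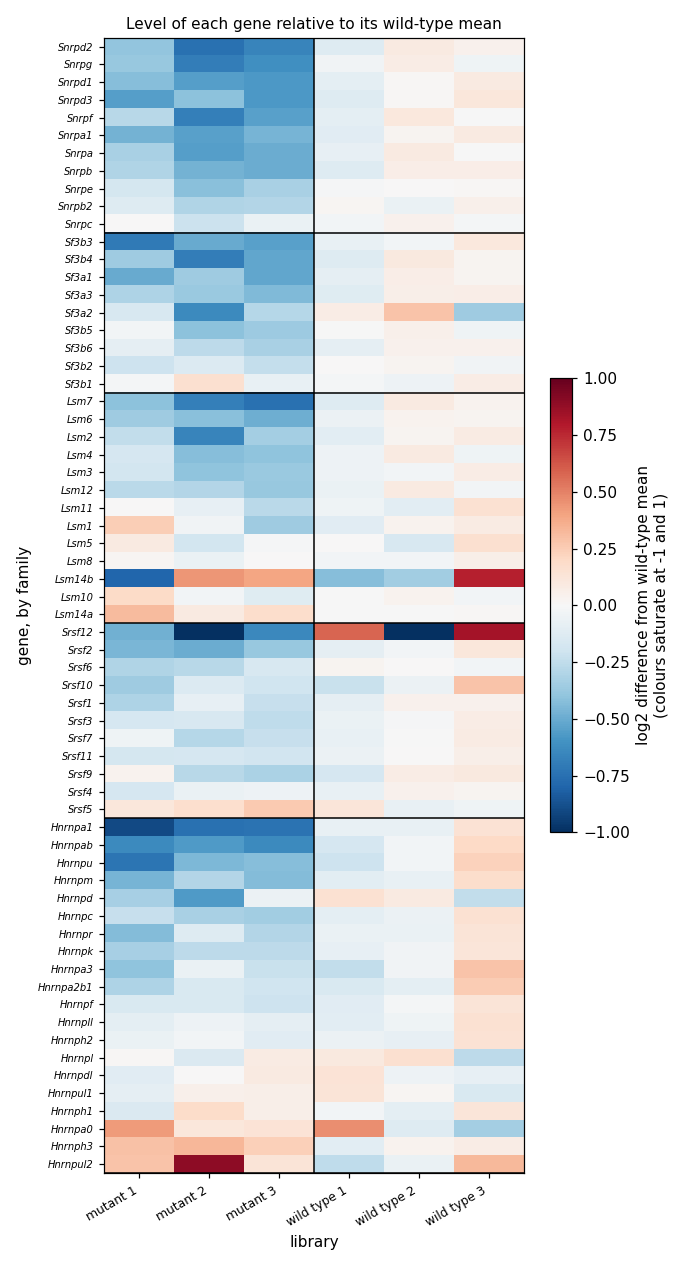
Log2 difference of each of the 64 tested genes (rows, by family) from its wild-type mean in the 3 mutant and 3 wild-type libraries (columns), with colours saturating at -1 and 1. Snrp rows are blue in nearly all mutant cells, while Lsm14b and Srsf12 vary within each genotype.

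Among the SR proteins 1 of 11 fell and 0 rose, where 10.9% of all tested genes fell, and the median log2 change was -0.20. Srsf2 (chromosome 11, also called SC35), a marker of nuclear speckles, had 13595, 13248 and 14301 normalised reads in the mutant libraries, against 17542, 18329 and 20141 in the wild-type libraries. It was 26.5% lower in the mutant (-0.44 ± 0.09, adjusted p = 0.00822 by limma), and its genotypes did not overlap. Srsf2 shares 15.6% of its exon length with Mettl23, which averaged 4008 normalised reads. Srsf6 averaged 21756 ± 1134 in the mutant and 25827 ± 467.1 in the wild type (-0.25 ± 0.08, adjusted p = 0.0648 by limma). Srsf3, which also serves as an mRNA export adaptor, averaged 40248 ± 1485 in the mutant and 46096 ± 2168 in the wild type (-0.20 ± 0.08, adjusted p = 0.133 by limma). Srsf11 had 16328, 16396 and 16156 in the mutant and 17648, 18468 and 19156 in the wild type, which is no overlap but a log2 interval of -0.36 to 0.01. In these 3 genes every mutant library was below every wild-type library, and none was called.

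Srsf5 was the 1 SR gene with a positive change, with 38557, 39906 and 42618 in the mutant and 38674, 33751 and 34478 in the wild type (0.18 ± 0.09, interval -0.02 to 0.38). Its genotypes overlapped. Srsf4 had 2287, 2456 and 2484 in the mutant and 2440, 2651 and 2626 in the wild type (-0.09 ± 0.10). Srsf1, the founding member, changed by -0.21 ± 0.11, Srsf7 by -0.19 ± 0.09, Srsf9 by -0.18 ± 0.12 and Srsf10 by -0.23 ± 0.13, none of them called. Srsf12 was near the filter, at 11.03 ± 3.38 in the mutant and 23.99 ± 15.27 in the wild type, and its change of -0.81 ± 0.66 could not be told from 0.

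Of 20 hnRNP genes 5 fell and 0 rose, with a median log2 change of -0.20. Hnrnpa1 (chromosome 15), a repressor of splice sites, had 13651, 15227 and 15291 normalised reads in the mutant libraries, against 24302, 24270 and 28247 in the wild-type libraries. It was 42.5% lower in the mutant (-0.80 ± 0.10, adjusted p = 0.000676 by limma), the smallest p among the members. Hnrnpab (chromosome 11) had 19765, 20749 and 19740 in the mutant and 27300, 30092 and 35283 in the wild type (-0.61 ± 0.10, adjusted p = 0.00345 by limma). The lowest wild-type library stood well above the highest mutant library in both. Hnrnpu (chromosome 1), a scaffold attachment factor that also binds chromatin, had 33230, 40413 and 41076 in the mutant and 47898, 54166 and 64628 in the wild type (-0.53 ± 0.13, adjusted p = 0.0165 by limma). Hnrnpm had 19021, 21496 and 19414 in the mutant and 24445, 24978 and 29676 in the wild type (-0.40 ± 0.10, adjusted p = 0.0236 by limma). Hnrnpk, a poly-C binding protein, had 70222, 73801 and 73582 in the mutant and 83554, 86181 and 96110 in the wild type (-0.29 ± 0.09, adjusted p = 0.0455 by limma). No overlap between the genotypes was seen in these 3 genes, and wild type replicate 3 was the highest library in each.

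The count of hnRNP genes that fell was 3 when mutant replicate 1 or mutant replicate 3 was left out. It was 2 when wild type replicate 2 or wild type replicate 3 was. Hnrnpk was lost without any 1 library (0.0637 to 0.161), with edgeR (0.074) and with equal library totals (0.0837). Hnrnpu was lost without wild type replicate 2 (0.0551) or 3 (0.0535), and Hnrnpm without mutant replicate 1 (0.0586), mutant replicate 3 (0.0564), wild type replicate 2 (0.0604) or wild type replicate 3 (0.0803). Hnrnpab shares 29.1% of its exon length with Phykpl, which averaged 1708 normalised reads. Hnrnpm shares 14.7% with March2, which averaged 2635, and the kit does not mark strand. Hnrnpa1 has processed pseudogenes with which reads may be shared.

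Among the 15 hnRNP genes not called, Hnrnpa2b1, a close relative of Hnrnpa1, averaged 86332 ± 4802 in the mutant and 101278 ± 16161 in the wild type (-0.22 ± 0.12). Hnrnpc averaged 24261 ± 1096 in the mutant and 29975 ± 2883 in the wild type (-0.30 ± 0.10, adjusted p = 0.0521 by limma). Of the positive changes that of Hnrnph3 had the smallest p, with 4265, 4396 and 4114 in the mutant and 3237, 3569 and 3673 in the wild type (0.29 ± 0.10, adjusted p = 0.0696 by limma). It passed with equal library totals (0.0284), with library weights (0.0404) and with DESeq2 (0.0441). Hnrnpul2 had the largest positive change of the tested members, averaging 1298 ± 386.1 in the mutant and 946.1 ± 197.2 in the wild type (0.44 ± 0.21, interval -0.04 to 0.91), and Hnrnpa0 averaged 1255 ± 158.3 in the mutant and 1099 ± 333.5 in the wild type (0.23 ± 0.20). Both overlapped between the genotypes and neither was called. Hnrnpll, which in mouse lymphocytes represses the variable exons of Ptprc, had 8308, 8597 and 8339 in the mutant and 8265, 8608 and 9858 in the wild type, with an interval of -0.29 to 0.14. Hnrnpl, its relative, averaged 19656 ± 1573 in the mutant and 20006 ± 2982 in the wild type. The 2 smallest changes were those of Hnrnpul1, at 6771, 7462 and 7525 in the mutant and 7886, 7319 and 6484 in the wild type, and Hnrnpdl, at 11932, 12907 and 13706 in the mutant and 14206, 12432 and 12158 in the wild type. CACGTG was in the windows of 5 of 18 matched hnRNP genes, of which Hnrnpm fell and Hnrnpa3, Hnrnpd, Hnrnpf and Hnrnph2 were not called.

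Ratios of partner genes within each library are given for 5 pairs. A member that fell was set against one that was not called, after their values were seen. Separate ratios follow largely from that choice, and no p-value is given. Of the members not called, Srsf5 itself had a positive change (0.18) and Hnrnpa2b1 a negative one (-0.22). Sf3b3 per read of Sf3b1 was 0.435, 0.444 and 0.508 in the mutant and 0.679, 0.713 and 0.717 in the wild type. Lsm7 per read of Lsm8 was 0.610, 0.534 and 0.486 in the mutant and 0.762, 0.893 and 0.809 in the wild type. Hnrnpa1 per read of Hnrnpa2b1 was 0.168, 0.168 and 0.175 in the mutant and 0.269, 0.259 and 0.236 in the wild type. The ratios did not overlap between the genotypes in any of the 3, nor in Srsf2 to Srsf5 (0.353, 0.332 and 0.336 in the mutant, 0.454, 0.543 and 0.584 in the wild type) and Hnrnpu to Hnrnpul1 (4.91, 5.42 and 5.46 in the mutant, 6.07, 7.40 and 9.97 in the wild type). For Hnrnpu to Hnrnpul1 the 95% interval of the log2 difference, -1.13 to 0.05, included 0.

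**Figure D4:**
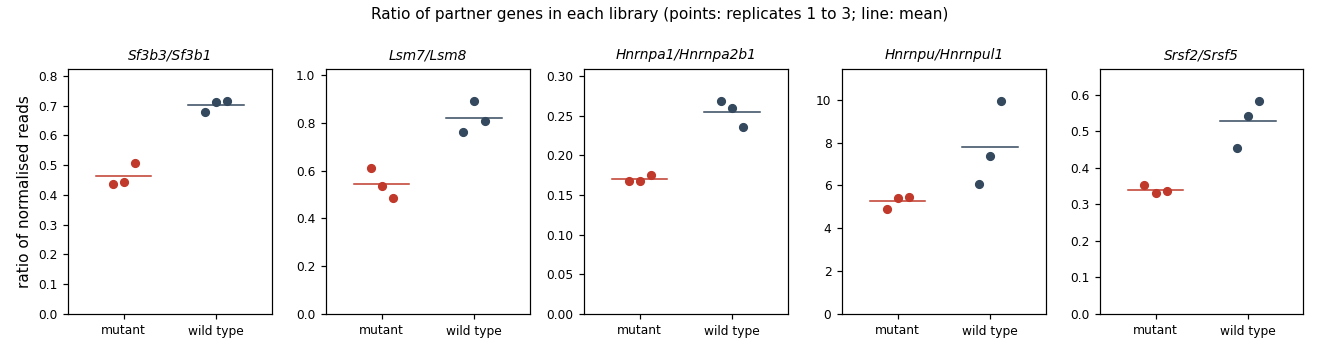
Ratio of normalised reads (y axis, from 0) of 5 pairs of partner genes in the 3 mutant and 3 wild-type libraries, with a line at each mean. All mutant ratios lie below all wild-type ratios in each pair.

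The libraries within a genotype also differed by family. Mutant replicate 1 was the highest mutant library for 9 of 11 Snrp genes and 12 of 13 Lsm genes, but for 2 of 20 Hnrnp genes, where it was highest for 37.1% of all tested genes. Wild type replicate 3 was the highest wild-type library for 15 of 20 Hnrnp genes and 8 of 11 Srsf genes, against 36.5% of all tested genes, and wild type replicate 1 was highest for 0 of the 33 core snRNP genes. What sets these libraries apart was not tested.

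Other splicing genes were read from lists drawn up with the families, with earlier results of these data known. Across all tested genes 10.9% were called lower and 7.94% higher. Of 22 genes of snRNP assembly and import 6 fell and 0 rose (median log2 change -0.23; unadjusted 11 lower and 0 higher; edgeR, voom and DESeq2 0 higher). They include genes of the methylosome that modifies Sm proteins. Prmt5, its methyltransferase, had 5672, 5596 and 5663 normalised reads in the mutant and 9059, 9444 and 10376 in the wild type (-0.77 ± 0.09, adjusted p = 0.000652 by limma). Wdr77, the partner of PRMT5, had 3509, 3863 and 3270 in the mutant and 5731, 6120 and 6976 in the wild type (-0.82 ± 0.11, adjusted p = 0.00112 by limma). Neither overlapped between the genotypes. Clns1a (-0.43 ± 0.09), the Sm chaperone pICln, and Strap (-0.55 ± 0.09), a partner of the SMN complex, fell too. Smn1 (-0.47 ± 0.12) and Gemin5 (-0.54 ± 0.12), which recognises snRNAs, fell with adjusted p of 0.0194 and 0.0129 by limma. Smn1 was lost without mutant replicate 2 (0.0714), mutant replicate 3 (0.0506), wild type replicate 1 (0.054) or wild type replicate 2 (0.0905), and Gemin5 without wild type replicate 2 (0.063).

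Of 39 further proteins of U1, U2 and the tri-snRNP 10 fell (25.6%) and 1 rose (2.6%), with a median of -0.22. The shares over all tested genes were 10.9% and 7.94%. Snu13 (-0.55 ± 0.10) and Prpf31 (-0.51 ± 0.09), which bind U4 RNA, fell, as did U2af1 (-0.53 ± 0.11), which reads the end of the intron, and Rbm17 (-0.53 ± 0.10). Rbm5 rose, with 24953, 25567 and 23192 in the mutant and 19813, 20508 and 19473 in the wild type (0.30 ± 0.08, adjusted p = 0.033 by limma), and was lost without mutant replicate 1 (0.0575), mutant replicate 2 (0.112) or wild type replicate 1, 2 or 3 (0.0872, 0.0964 and 0.0955). The genes of this list that fell numbered 5 without wild type replicate 2 and 6 without wild type replicate 3. Of 27 genes of the catalytic spliceosome 2 (7.4%, under the 10.9% of all tested genes) fell, Prpf19 (-0.84 ± 0.17) and Ppil1 (-0.54 ± 0.11), and 0 rose (unadjusted 9 lower and 0 higher; edgeR, voom and DESeq2 0 higher).

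In the remaining lists, too, the shares called lay near or under those of all tested genes. Of 23 SR-related proteins and SR kinases 3 fell (Rnps1 by 0.60, Luc7l by 0.34 and Srpk1 by 0.36 on the log2 scale) and 1, Tra2a, rose (0.33 ± 0.10). Tra2a (adjusted p = 0.0479 by limma) was lost without any 1 library (0.055 to 0.164), Luc7l in 5 of those 6 fits (0.0505 to 0.118) and Srpk1 in 5 of 6 (0.0616 to 0.192), so that the list held 1 that fell without mutant replicate 3 or without any 1 wild-type library. Srpk1 (adjusted p = 0.0481 by limma) also missed the threshold with edgeR (0.0524), voom (0.0506), TMM scaling (0.0509), equal library totals (0.0696) and no filter (0.0522), so that edgeR and voom called 2 of this list lower. Luc7l was lost with equal library totals too (0.057). Of 28 other RNA-binding regulators Syncrip fell (-0.57 ± 0.13) and Rbmx rose (0.34 ± 0.10, adjusted p = 0.0494 by limma). Rbmx was lost without mutant replicate 2 (0.16), mutant replicate 3 (0.0976), wild type replicate 1 (0.14) or wild type replicate 2 (0.168). Of 9 minor-spliceosome genes 0 were called by limma, edgeR, voom or DESeq2, with 1 lower and 0 higher at an unadjusted p under 0.05. Of 11 decapping and U7 partners of Lsm proteins 0 were called by any of these tools, with 0 at an unadjusted p under 0.05.

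**Figure D5:**
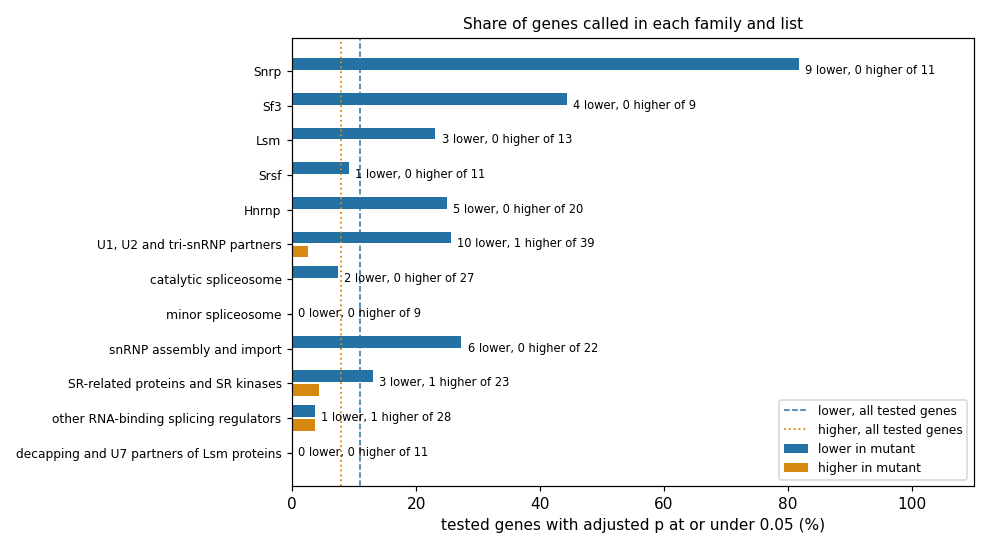
Share of tested genes (x axis, %) called lower (blue) or higher (orange) in the mutant in each of the 5 families and 7 lists, with the shares over all tested genes, 10.9% and 7.94%, as dashed and dotted lines. The Snrp bar of 81.8% is the longest, and the minor-spliceosome and decapping lists have none.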

How the data were processed

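RNA was extracted with a column kit, amplified with SMART-Seq v4, made into Nextera XT libraries and sequenced as paired ends on a HiSeq, per the labels' protocols. This chemistry does not mark strand. STAR 2.5.3, featureCounts, DESeq2 1.20.0 and the mm10 (GRCm38) build are named per the submitters' processing notes. For the authors' annotation release, counting options and gene filter, nothing is stated in the sources read. The deposited signal is a read count per gene divided by 1 size factor per library by the authors. Whole reads were recovered for 100.0% of 126810 values within 0.1 reads, and they totalled 38.6 to 51.3 M per library. Symbols came from GENCODE M21 for 21100 of 21135 genes, and the 35 without one held 0.008% of reads.

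Genotypes, taken from the labels, were compared as mutant minus wild type with limma 3.58.1 in R 4.3.3 (empirical Bayes with a trend, two-sided) on log2(value + 1), for 17815 genes with a mean of at least 10, with Benjamini-Hochberg adjustment over all of them and a threshold of 0.05. Errors of log2 changes are SE, and fold changes on this scale understate those of low genes. The test was also run on simulated counts with the same dispersion for every gene. Such counts lack the differences between libraries described above, so that run does not check the calls given here. edgeR 4.0.16 (quasi-likelihood), DESeq2 1.42.0 and voom on recovered reads, other pseudocounts, filters and scalings, library weights, a replicate block and leaving out each library were alternatives. Replicates of a genotype were distinct libraries, with chi-square values of 26.7 to 55.3 per degree of freedom between their counts. The members and gene lists were chosen with earlier results of these data known. Every member may be named, with values per library for up to 6 called members with the smallest p in each symbol family, for the least changed and for those against the family's direction. In the other lists up to 4 with the smallest p are named, with any called against the direction of its list. For snRNP assembly and import all 6 that fell are named, beyond that limit. Lsm14a, Hnrnph3, Hnrnpll and some other uncalled members were given per library after their values were seen. Promoter sequences are from RefSeq (GRCm38.p6). Intervals on read sums cover counting error only.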

Additional observations from a re-analysis of the deposited data

How the results depend on the processing

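Of the 22 members that fell, 10 were called in all 18 alternatives (Hnrnpa1, Hnrnpab, Lsm7, Sf3b3, Snrpa1, Snrpd1, Snrpd2, Snrpd3, Snrpg and Srsf2), 9 were lost only on leaving out a library, and Hnrnpk, Lsm2 and Snrpe were lost in other alternatives too. Leaving out 1 library at a time gave 1086 to 1780 genes that fell and 819 to 1176 that rose, and 10 to 23 members that fell (core snRNP 7 to 19, Snrp 5 to 9, Sf3 1 to 5, Lsm 1 to 5, Hnrnp 2 to 4). In the lists it gave 5 to 11 that fell and 0 to 1 that rose for U1, U2 and tri-snRNP partners, 1 to 2 and 0 to 2 for SR-related proteins, and 0 to 1 that rose for other RNA-binding regulators. Members that rose numbered 1 (Hnrnph3, so Hnrnp 1) with equal library totals, library weights or DESeq2. Lsm genes that fell numbered 6 with a mean of at least 50, 5 with robust empirical Bayes and 6 with library weights or DESeq2. With library weights 2 Srsf genes, 1 minor-spliceosome gene and 3 other RNA-binding regulators fell. SR-related genes that fell numbered 1 with equal library totals. Those that rose numbered 4 with equal library totals, library weights or DESeq2 and 0 without the filter. The other RNA-binding regulators that rose also numbered 0 without the filter. No pairing by replicate number was seen (same-numbered r -0.02, -0.07 and -0.01), though the labels do not say and these values cannot exclude it. With the replicate number as a block 19 members fell and 0 rose, and the genes that rose numbered 0 for U1, U2 and tri-snRNP partners, for SR-related proteins and for other RNA-binding regulators. The sign turned in members that were not called: for Hnrnpdl to 0.05 with equal library totals, 0.00 with library weights or edgeR and 0.01 with voom, for Hnrnpl to 0.04, Lsm1 to 0.01, Lsm5 to 0.03 and Lsm8 to 0.04 with equal library totals, and for Lsm10 to -0.01 with library weights. Over the fits that leave out a library, log2 changes ran from -0.06 to 0.06 for Hnrnpdl, -0.15 to 0.06 for Hnrnpl, -0.04 to 0.12 for Hnrnph1, -0.11 to 0.00 for Hnrnph2, -0.07 to 0.07 for Hnrnpul1, -0.2 to 0.11 for Lsm1, -0.07 to 0.08 for Lsm10, -0.2 to 0.42 for Lsm14b, -0.11 to 0.05 for Lsm5, -0.03 to 0.01 for Lsm8 and -0.05 to 0.07 for Sf3b1. The cause of these shifts was not tested. Of the 42 members not called, 27 had a 95% interval wholly within 0.5 of 0 on the log2 scale. That bound is wider than the change of some called members, such as -0.29 for Hnrnpk. The interval excluded 0 in 11 of the 42, and 9 were called in some alternative, Hnrnph3 as higher. These counts can share members.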
